A study of Oryza sativa with 6 samples.

Results

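The genes described here are the sucrose synthases SUS1 to SUS4, the sucrose transporters SUT1 to SUT5 and the gene listed as SPS1 in rice leaves. They were chosen by name, and no measured value entered the rule, though earlier results of these data were known. The rule takes probe sets that the platform annotation assigns to 1 gene. That gene has one of 10 names as symbol or synonym, with or without Os. The rule found 9 of the 17905 genes that the annotation places on the array, read by 11 of its 57381 probe sets, and 1 name, SUT3, had no match in the naming tables. Leaves of 30-day seedlings were compared between KMD, a transgenic line in the background of the cultivar Xiushui 11, and untransformed Xiushui 11 (XS11), with 3 arrays of each. KMD is 1 line; its labels name neither transgene nor promoter, and outside the labels it is known for an inserted Bt toxin gene, cry1Ab. The arrays are called biological replicates without a number of plants for each, so p-values measure the spread between these samples. The design text asks for the genes whose expression differs, in search of a basis for effects that transformation was not meant to have.

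Sucrose is the main sugar that leaves export. In the cytosol sucrose-phosphate synthase and sucrose-phosphatase make it, and SUT proteins carry it across membranes together with protons, among other places on its way into the phloem. Sucrose synthases catalyse a reversible reaction and are known mostly for splitting sucrose into UDP-glucose and fructose in tissues that use it, where they feed cellulose and starch synthesis, so their name does not mark them as synthesis genes in leaves.

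Every call below comes from the same test. Deposited intensities were taken as log2(signal + 11.17), the lines were compared with limma over the 34404 probe sets in the upper 60% of mean signal (the reporter probe sets included), and a call is a Benjamini-Hochberg adjusted p under 0.05. Of the 11 probe sets, 8 lay in this range, and 5 of the 8 (62.5%) passed the test, all lower in KMD and each for a different gene (SUS1, SUS2, SUS4, SUT1 and SUT2). Over all tested probe sets 39.7% passed, 18.1% higher and 21.6% lower in KMD. The median log2 difference of the 8 was -0.29, beside 0.0017 over all tested probe sets. With 1 probe set per gene, the brightest, 5 of 7 genes passed, beside 56.2% of all 14790 genes read in the same way (33.0% lower). Most genes read in this way passed, so passing alone says little about the genes chosen by name. These are called the sucrose genes for short, the gene listed as SPS1 included, whatever its role. Of the 8, 6 had every KMD array below every XS11 array and 0 had every KMD array above, while 48.8% of all tested probe sets had no overlap between the lines (25.7% with every KMD array lower and 23.1% higher).

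**Figure D1:**
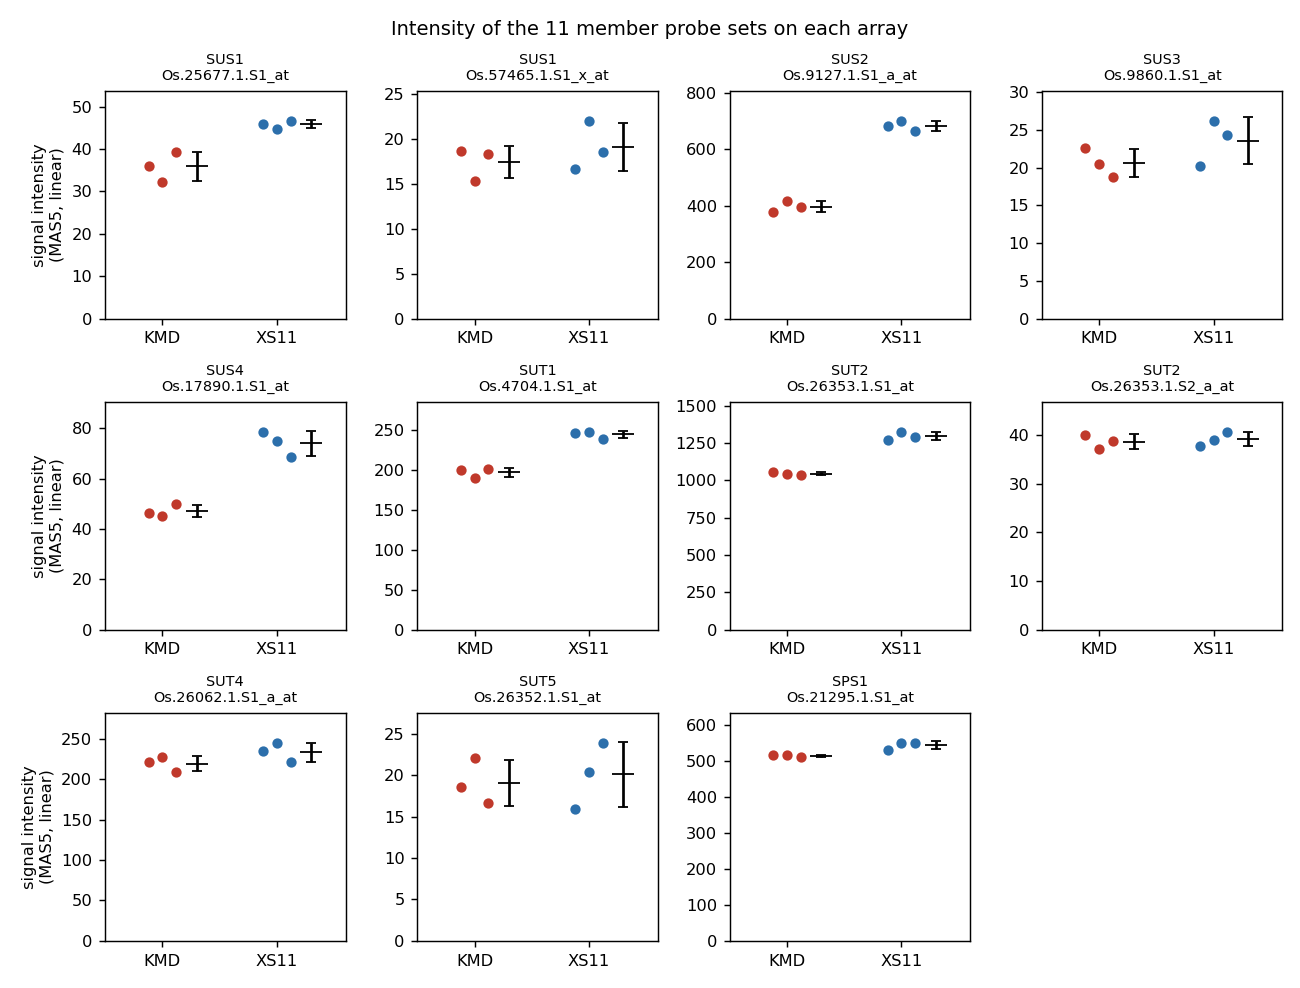
Signal intensity (deposited values, linear scale from 0) of the 11 probe sets on each of the 3 KMD and 3 XS11 arrays, with the mean ± SD beside the points. Every KMD array was below every XS11 array for SUS2, SUS4, SUT1, SPS1, the brighter probe set of SUS1 and the brighter probe set of SUT2, and the arrays of the lines overlapped for the other 5 probe sets.

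Among the sucrose synthases, SUS2 differed most. SUS2, the form known to be expressed in many rice organs, read 376, 416 and 397 in KMD against 681, 701 and 664 in XS11. Its highest KMD array stood well below its lowest XS11 array. The means were 396 ± 19.7 in KMD and 682 ± 18.7 in XS11 (SD, n = 3 each), so the mean intensity in KMD was 0.581 of that in XS11. The log2 difference was -0.77 (SE 0.046, adjusted p = 1.89e-08 in limma), larger in size than that of 96.4% of all tested probe sets. The probe sets of SUS2 and SUT4 are of the a_at type, which reads several transcripts of a gene together.

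SUS4, known mainly from the developing grain, was dimmer and also fell. Its intensities were 46.4, 45.2 and 49.95 in KMD against 78.6, 74.8 and 68.5 in XS11, with no overlap between the lines. The mean intensity in KMD was 0.638 of that in XS11, and the log2 difference was -0.54 (SE 0.080, adjusted p = 9.67e-05 in limma), larger in size than that of 92.0% of tested probe sets. SUS3, the other form known from grain, read 22.6, 20.5 and 18.8 in KMD against 20.1, 26.2 and 24.3 in XS11. These values overlap and lie in the 31.2nd percentile of mean signal, below the tested range, so the array gave no call for SUS3. Fitted without the filter, its log2 difference was -0.12 with a 95% interval from -0.33 to 0.082.

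SUS1, known from growing tissues, had 2 probe sets. The brighter one read 36.05, 32.3 and 39.3 in KMD against 45.9, 44.8 and 46.7 in XS11. Its mean signal lay in the 53.2nd percentile, not far from the array medians of 35.5 to 38.7. Presence calls were not used, so how much of this signal is background is not known. The KMD arrays spread more than the XS11 arrays but stayed below them. The log2 difference was -0.28 (SE 0.085, adjusted p = 0.018 in limma), and this call was lost without KMD replicate 2, where the difference was -0.22 (adjusted p = 0.085 in limma). The other, of the x_at type, was too dim to be tested, at 15.3 to 18.6 in KMD and 16.7 to 21.99 in XS11, and its values overlap. The tables also list RSs2 for SUS1 and RSS1 for SUS2, so older numberings of these genes run the other way.

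The sucrose transporters SUT1 and SUT2 were lower in KMD by similar amounts. SUT1, a proton-coupled carrier of the plasma membrane known for its part in sucrose transport along the phloem and into the grain, read 199.5, 190.2 and 201 in KMD against 247, 248 and 239 in XS11. The lines did not overlap. The log2 difference was -0.30 (SE 0.050, adjusted p = 3.01e-04 in limma), with KMD at 0.806 of the XS11 mean.

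SUT2, known as the carrier of the vacuolar membrane, was read by 2 probe sets that differ in what they show. The brighter one read 1059, 1039 and 1037 in KMD against 1269, 1325 and 1293 in XS11, and each KMD array was below each XS11 array. Its log2 difference was -0.31 (SE 0.034, adjusted p = 7.61e-06 in limma). The other, of the a_at type, was far dimmer, at 40.1, 37.0 and 38.8 in KMD against 37.8, 38.9 and 40.7 in XS11. Here the lines overlap, and the log2 difference was -0.014 (95% interval from -0.19 to 0.16, adjusted p = 0.92 in limma), an interval that leaves out the -0.31 of the brighter probe set. The lower SUT2 signal in KMD thus rests on 1 of its 2 probe sets.

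SUT4 and SUT5 gave no call. SUT4, for which the tables also list SUT2 as a synonym, read 221, 227 and 209 in KMD against 234, 245 and 221 in XS11. Its highest KMD array was above its lowest XS11 array, and the log2 difference of -0.087 had a 95% interval from -0.21 to 0.033 (adjusted p = 0.25 in limma). The estimate was -0.053 without XS11 replicate 2, -0.056 without KMD replicate 3 and -0.049 under quantile normalization, with no call in any of these. The interval from all 6 arrays leaves out the estimates of SUT1 and of the brighter SUT2 probe set, while the difference between these genes was not itself tested. SUT5 stayed near the dim end, at 16.6 to 22.01 in KMD and 16.0 to 23.9 in XS11, in the 26.6th percentile of mean signal and below the tested range.

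The gene listed as SPS1 also gave no call. Its intensities were 517, 517 and 512 in KMD against 533, 551 and 552 in XS11. Every KMD array was below every XS11 array, but by little: the log2 difference was -0.079 (SE 0.039, 95% interval from -0.16 to 0.0050, adjusted p = 0.13 in limma). In rice the symbol SPS1 stands for a solanesyl diphosphate synthase of quinone synthesis as well as for a sucrose-phosphate synthase. The tables carry no gene description, so no role in sucrose synthesis is given to this gene here. Its probe set is counted among the 8 tested and the 6 with every KMD array lower, but not among the 5 calls.

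**Figure D2:**
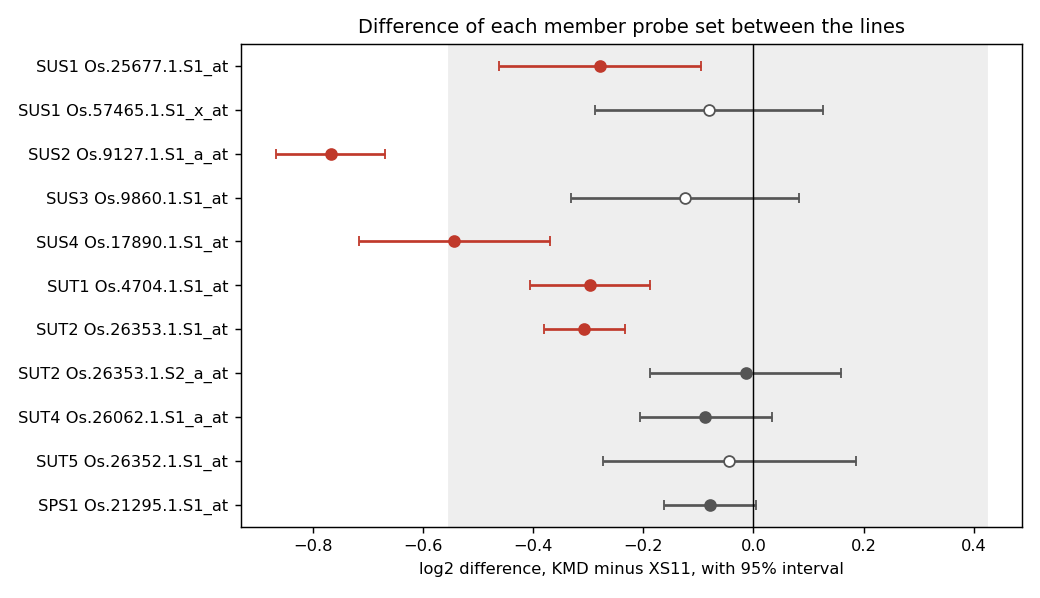
Log2 difference, KMD minus XS11, of each of the 11 probe sets with its 95% interval. Filled points were tested, in red where lower in KMD by the test, and open points lay below the tested range and come from the fit without the filter. The grey band runs from the 5th to the 95th percentile of all tested probe sets, -0.55 to 0.42, and among the 11 probe sets SUS2 alone lies outside it.

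Other genes of sugar metabolism and transport were taken from 6 lists of symbols, read by the brightest probe set of each gene. Of 37 tested genes, 9 passed as higher in KMD, 13 passed as lower and 15 missed the threshold, with a median log2 difference of -0.068, beside -0.034 over all genes read in this way. The shares passing in each direction over all such genes were 23.2% higher and 33.0% lower.

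Of the 5 tested genes of sucrose synthesis, 2 rose, 0 fell and 3 did not pass. SPP1 and SPP2, listed as sucrose-phosphatases by symbol and the enzymes of the last step, were the 2 that rose. SPP1 read 2236, 2397 and 2196 in KMD against 1566, 1691 and 1707 in XS11 (log2 difference 0.46, SE 0.043, adjusted p = 1.51e-06 in limma), and with arrays centred on the spike-in controls, given below, this turned to -0.16. SPP2 read 1767, 1903 and 1772 in KMD against 1583, 1588 and 1661 in XS11 (0.17, SE 0.038, adjusted p = 0.0028 in limma), and turned to -0.45 on the spike-in scale. Every KMD array of both genes was above every XS11 array in the deposited values.

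The 3 genes that did not pass, named after their values were seen, include the tested genes with symbols of the sucrose-phosphate synthase family. SPS6, also listed as OsSPS3F, stood at -0.016 (95% interval from -0.13 to 0.10). SPS8, also listed as OsSPS4F, stood at -0.10 (95% interval from -0.195 to -0.011, adjusted p = 0.073 in limma). CFBP1, the cytosolic fructose bisphosphatase upstream of sucrose synthesis, stood at 0.021 in its brightest probe set, with a range of 5751 to 5905 in KMD, against 5656 to 5824 in XS11. A sucrose-phosphate synthase listed as OsSPS2F and the sucrose synthases SUS5 and SUS6 were below the tested range. Not every sucrose-phosphate synthase name sought had a match, so that family was covered only in part.

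Of the 6 tested invertases, which split sucrose into glucose and fructose, 0 rose, 2 fell and 4 did not pass. CIN1, a cell wall invertase, read 422, 430 and 417 in KMD against 596, 601 and 548 in XS11 (log2 difference -0.45, SE 0.045, adjusted p = 2.74e-06 in limma). CINV1, a neutral invertase of the cytosol, read 159, 169 and 160 in KMD against 219, 208 and 224 in XS11 (-0.39, SE 0.055, adjusted p = 5.82e-05 in limma). Neither gene had overlapping lines.

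The sugar carriers other than SUT held the largest change among the tested sugar genes, that of MST3. Of 10 tested genes for hexose carriers and SWEET proteins, 1 rose, 7 fell and 2 did not pass. All of them but MST3 were genes of SWEET proteins, which let sugars pass membranes along their gradient. The monosaccharide transporter gene MST3 read 502, 562 and 518 in KMD against 1022, 1066 and 1112 in XS11 (log2 difference -1.002, SE 0.048, adjusted p = 2.23e-09 in limma), a size that exceeds the change of 98.2% of tested probe sets. SWEET2B fell by 0.59 in its brightest probe set and by 0.71 in the other, while SWEET16 fell by 0.56. SWEET2A went the other way, at 228, 219 and 205 in KMD against 132, 140 and 136 in XS11 (0.63, SE 0.058, adjusted p = 1.20e-06 in limma), and on the spike-in scale its difference was 0.011 and not called.

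Of 7 tested hexokinases and fructokinases, which phosphorylate the sugars released from sucrose, 3 rose, 0 fell and 4 did not pass. The gene listed as both HXK2 and HXK3 stood at 0.31, HXK4 at 0.27 and the fructokinase gene FKI at 0.20, and all 3 were lower in KMD on the spike-in scale (-0.31, -0.35 and -0.42). The call for HXK2/HXK3 was lost without KMD replicate 3 (0.27, adjusted p = 0.052 in limma).

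Of 5 tested starch genes, 1 rose, 2 fell and 2 did not pass. AGPS2, a small subunit of ADP-glucose pyrophosphorylase, fell by 0.235 and the branching enzyme gene SBE1 by 0.26. GBSS1, the granule-bound starch synthase that makes amylose, rose by 0.53 in its brightest probe set (-0.095 on the spike-in scale), while its 3 other tested probe sets, at 0.077 to 0.099, did not pass. Of 4 tested genes listed as trehalose-phosphate phosphatases, TPP7 (0.58) and TPP9 (0.39) rose, and TPP1 (-0.41) and TPP2 (-0.25) fell. On the spike-in scale TPP7 stood at -0.040 and TPP9 at -0.23. The TPP2 call was lost without KMD replicate 3 (-0.21, adjusted p = 0.054 in limma).

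**Figure D3:**
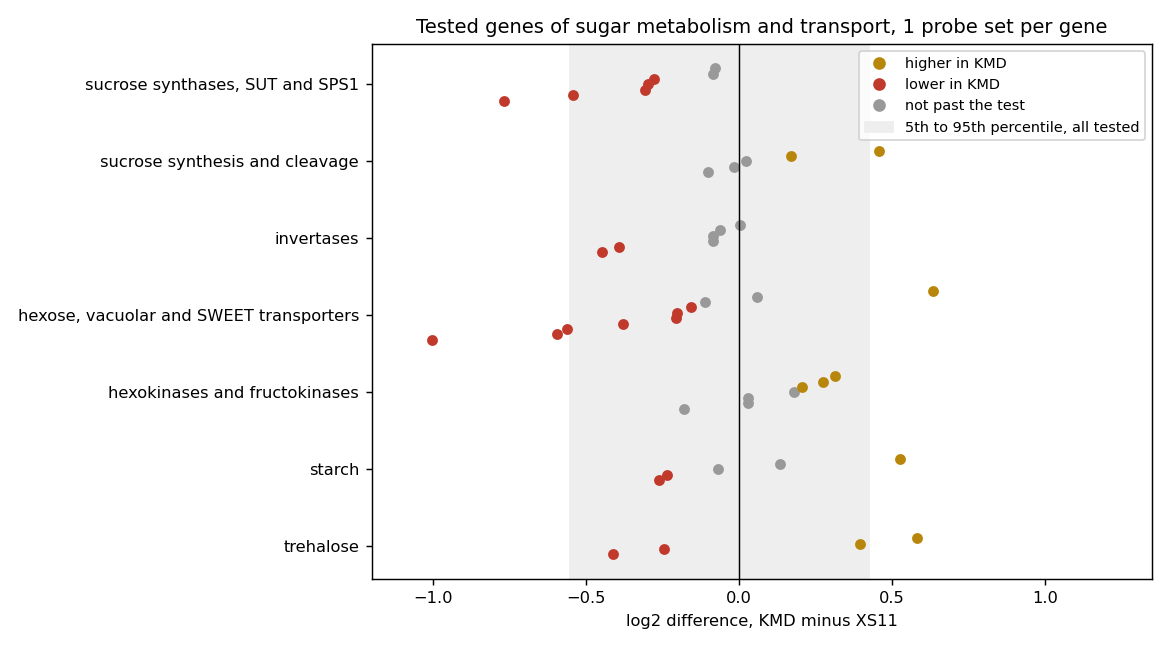
Log2 difference, KMD minus XS11, of each tested gene of the sucrose synthases, SUT and SPS1 group and of the 6 other sugar lists, 1 probe set per gene, coloured by the outcome of the test. The grey band is the range from the 5th to the 95th percentile of all tested probe sets. MST3 at -1.002 lies farthest to the left, and SWEET2A at 0.63 farthest to the right.

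The probe sets whose values lay closest to those of SUS2 were sought among 2535 tested probe sets with a named gene, by the root mean square distance over the 6 arrays of log2 values, each centred on its own mean. The closest were OsC3H2 (distance 0.029, log2 difference -0.76), OsGT47D (0.030, -0.73) and BGLU16 (0.032, -0.75). These distances rest mostly on the gap between the 2 lines.

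Several facts of the whole series bear on these values. The leaf markers RBCS, RCA and CAB2R were near the top of the scale in their brightest probe sets, with RBCS at 15883 to 16083 in KMD and 15905 to 16460 in XS11. Of 4 tested leaf markers 0 were higher in KMD, 2 were lower and 2 did not pass, and the summed intensity of the 5 with a probe set was 43030 to 43670 in KMD and 46020 to 46510 in XS11. The 2 lower ones were LFNR1, a ferredoxin reductase of photosynthesis (log2 difference -0.28, adjusted p = 5.37e-05 in limma), close in size to SUT1, and RCA, the Rubisco activase (-0.18, adjusted p = 1.36e-04 in limma). The leaf marker RBCS1 was below the tested range, with every KMD array higher (18.3 to 20.8 in KMD and 13.6 to 17.6 in XS11). Of 3 tested root markers, 3 were lower in KMD, and the summed intensity of the 7 root markers with a probe set was 442 to 487 in KMD and 965 to 1039 in XS11. The genes LSI2, IRT2, PT6 and PT2 of that list were below the tested range, and HAK1 alone read 163 to 171 in KMD and 571 to 602 in XS11. Of 4 tested seed markers 1, GLUA2, was higher in KMD. The sums over 7 seed genes were 1370 to 1453 in KMD and 1173 to 1231 in XS11. GLUA2 alone read 693 to 728 in KMD and 520 to 539 in XS11 in its brightest probe set. Its other probe set, below the tested range, overlapped between the lines (16.5 to 23.2 in KMD and 19.5 to 24.5 in XS11). Of 4 pollen and anther markers 1 was tested and was higher. The sums of that list were 82.3 to 97.5 in KMD and 73.1 to 92.0 in XS11. The part of these markers in the lower SUS and SUT signals was not tested, and in whole leaves fewer cells of a type and less RNA per cell cannot be told apart. The ratio of 3' to 5' signal of actin, which rises when RNA is degraded or labelled from its 3' end, averaged 5.79 ± 0.14 in KMD arrays, against 4.62 ± 0.30 in XS11 arrays (SD, n = 3 each), and its part was not tested either.

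The scale of the arrays sets how large these differences are. The 36 poly-A spike-in probe sets, for RNA added before labelling, were 0.62 higher in KMD on average on the log2 scale, and 35 of them were higher in every KMD array. Centring each array on them moved the median difference of all tested probe sets to -0.62. On that scale all 8 tested probe sets of the genes chosen by name were called lower. SUS2 stood at -1.39, SUS4 at -1.17, SUT2 at -0.93 and -0.635, SUT1 at -0.92, SUS1 at -0.90, SUT4 at -0.71 and SPS1 at -0.70. This centring moves every probe set by the same amount, and relative to the shifted median the second SUT2 probe set, SUT4 and SPS1 stood close to 0. Under quantile normalization the 5 calls stayed, with SUS2 at -0.70, SUS4 at -0.54, SUS1 at -0.28, SUT1 at -0.26 and SUT2 at -0.25.

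**Figure D4:**
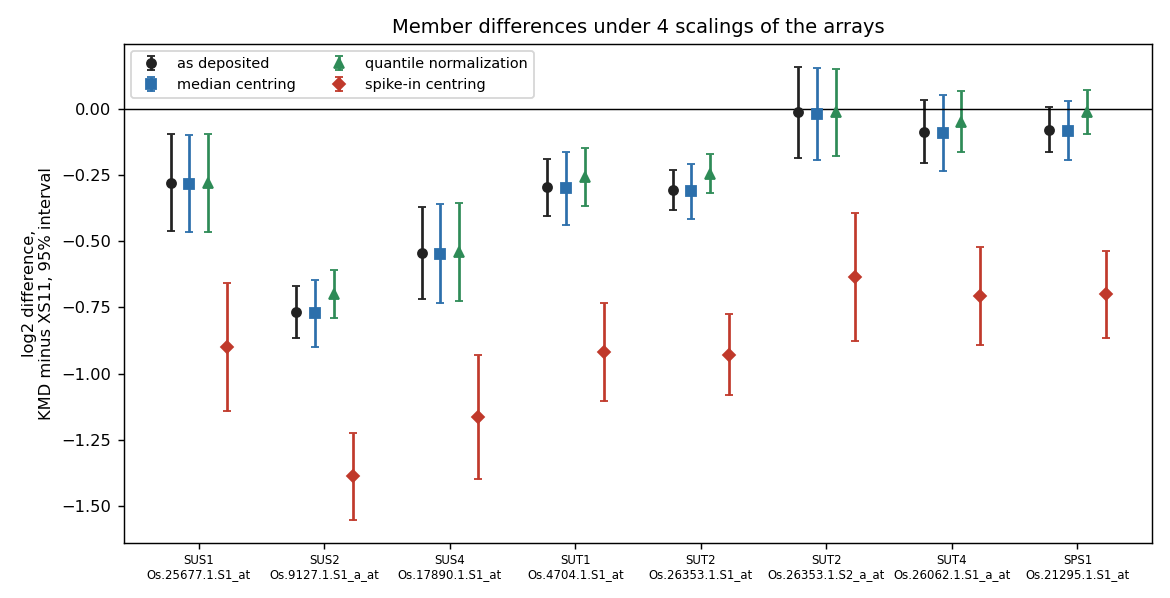
Log2 difference, KMD minus XS11, with 95% intervals for the 8 tested probe sets of the sucrose genes, in the deposited values and after median centring, quantile normalization and centring on the spike-ins. SUS2 is lowest under each scaling, from -0.70 to -1.39, and the second SUT2 probe set, SUT4 and SPS1 are clear of 0 only on the spike-in scale.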

How the data were processed

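The deposited table holds 1 microarray intensity per probe set and array on a linear scale, which the authors made with MAS5, per the submitters' processing notes; its settings and scaling were not stated. Array medians ran from 35.5 to 38.7, and all 6 columns were used, grouped by title. Raw scans and presence calls were not used here. Of 57381 probe sets, 22436 had 1 gene in the platform annotation, 95 had several and 34850 had none; all 17905 genes were found by ID in the RefSeq table, assembly ASM3414082v1, used for names only.

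The pseudocount of 11.17 is the 10th percentile of all values, and fold changes on this scale understate those of dim probe sets. Control probe sets (123) were not tested. The test was limma 3.58.1 in R 4.3.3 (two-sided, lmFit and trended eBayes) with no further normalization and no replicate block. Its code was run on simulated data with independent noise, few changed probe sets and no shift of scale. That run checks the code and not the calls made here. Python 3.11.15 made the tables. The number of arrays limits the precision.

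Every matched probe set of the 10 names is given. Of each other list up to 4 genes past the threshold were named, by size of change. In all 5 genes were left out because their synonyms stand for another protein (IMPAS, TPPII, GRF4) or a shared symbol (OsSPS2). The genes and lists were chosen with earlier results of these data known. Alternatives were other pseudocounts, filters, scalings, no intensity trend, a replicate block and leaving out each array.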

Additional observations from a re-analysis of the deposited data

How the results depend on the processing

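Across 15 alternatives, 112 of 118 values of the sucrose probe sets and 257 of 268 of the named list genes kept their direction and their side of the threshold. Centring on the spike-ins gave 32924 calls (324 higher and 32600 lower, against 6222 and 7438), 8 calls among the sucrose probe sets, and called SPS1 (-0.70), SUT4 (-0.71) and the second SUT2 probe set (-0.635). It turned HXK2/HXK3 (-0.31), HXK4 (-0.35), FKI (-0.42), GBSS1 (-0.095), SPP1 (-0.16), SPP2 (-0.45), TPP7 (-0.040) and TPP9 (-0.23). These shifts follow from its construction. Leaving out 1 array at a time gave SUS1 at -0.33 to -0.22 (4 or 5 calls among the sucrose probe sets), and the second SUT2 probe set, not called, at -0.035 to 0.010; the cause was not tested. Without a call in any of these, SUT4 ran from -0.123 to -0.053 and SPS1 from -0.095 to -0.070, and quantile normalization gave SUT4 -0.049 and SPS1 -0.012. In the upper 40% of signal SUS1 was no longer in the tested range, which left 4 calls. With the replicate block there were 12450 calls over all probe sets (13660 without) and 5 among the sucrose probe sets. Same-numbered arrays of the lines deviated from their line means with correlations of -0.243, -0.008 and -0.255. No array correlated best with its own number. These values show no pairing by number, but with 3 arrays per line, centred on their mean, they cannot exclude one. The labels name no batch, so line and any batch that coincided with it cannot be told apart.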
